A study of Mus musculus with 5 samples.

Results

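Heat shock proteins are molecular chaperones, and 10 of their genes were examined in cultured cells for which the labels name no heat shock or other stress: Hspa1a, Hspa1b, Hspa5, Hspa8, Hsp90aa1, Hsp90ab1, Hspb1, Hspd1, Hspe1 and Dnajb1. They were chosen by symbol, and all 10 were found among the 25415 genes of the expression tables. RNA-seq was available for 2 samples of neural stem cells (NSCs) and 3 samples of STO cells. The NSCs were primary cells of the C57BL/6 strain taken from mouse embryonic cortex, grown alone on laminin-coated dishes in Neural basal medium with epidermal growth factor, basic fibroblast growth factor, heparin and B27, and used at passages 5 to 8. STO cells are an established line of SIM mouse embryonic fibroblasts resistant to thioguanine and ouabain, given by the labels as C57BL/6, grown in high-glucose medium with fetal bovine serum and used after more than 30 passages. The 2 groups thus differed in cell type, medium and passage, and these cannot be told apart. The STO samples came from 1 line, and nothing states that the replicates of either group were separate cultures, so p-values measure the spread between these samples, which may be technical.

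Chaperones bind unfolded or newly made proteins and let them fold without clumping. HSP70 proteins do so in cycles of ATP hydrolysis, with J-domain proteins such as DNAJB1 bringing the client and exchange factors releasing it, HSP90 proteins act later on kinases and steroid receptors, and the mitochondrial pair HSP60 and HSP10 (Hspd1 and Hspe1) forms a folding chamber with its lid. Most cells make Hspa8 and Hsp90ab1 all the time, whereas Hspa1a, Hspa1b and Hspb1 are the classical genes that heat shock factor 1 switches on under heat or proteotoxic stress, through repeats of the 5-base unit nGAAn called heat shock elements.

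Values are FPKM, fragments per kilobase of transcript scaled to the mapped fragments of the library, which correct for transcript length and can therefore be compared between genes. Samples were correlated on the log2(FPKM + 1) scale over genes with a mean of at least 1 FPKM across the 5 samples. Values of the 2 NSC samples had a Pearson's r of 0.994 and those of the STO samples 0.994 to 0.995. A sample of one cell type against the other gave 0.578 to 0.585. These are correlations across genes, which are not independent replicates. Read as counting error alone, the deposited upper confidence bounds implied 15223341 to 22271895 fragments per sample. These totals are approximate, since the bounds were wider than that for some genes. In NSC replicate 1, Hspd1 at 231 FPKM implied 2061 fragments, whereas Hsp90aa1 at 231 FPKM implied 20137. The labels held against marker genes: 9 neural stem cell markers summed to 3864 and 4079 FPKM in NSCs and to 0.399 to 0.501 FPKM in STO cells, where Sox2, Olig2, Fabp7, Pax6 and Sox1 were listed at 0, while 9 fibroblast markers summed to 1689.6 to 1785 FPKM in STO cells and to 5.19 and 5.42 FPKM in NSCs, where Col3a1, Dcn and Twist2 were at 0. All 4 astrocyte markers were also measured in NSCs, with sums of 70.4 and 71.4 FPKM against 0.242 to 0.432 FPKM in STO cells and Gfap at 15.9 and 16.9 FPKM. The 5 neuronal markers summed to 126 and 123 FPKM in NSCs and to 12.4 to 12.9 FPKM in STO cells, and 6 markers of microglia and endothelium to at most 0.509 FPKM in any sample. The part of such cells in the results was not tested, and in bulk samples fewer cells of a type and less RNA per cell cannot be told apart.

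Promoter sequences from RefSeq (GRCm38.p6) were matched for 7 of the 10 genes; Hspa8, Hsp90aa1 and Hsp90ab1 were not matched. The 250 bases before the annotated start are shown for 4 genes on which the results below turn, because the first pair carries near-identical sequence, Hspe1 shares its upstream region with Hspd1, and Hspa5 carries the element of the endoplasmic reticulum stress response. Sequences run 5′ to 3′ on the gene's own strand. Capitals mark heat shock units of the form GAANNTTC or TTCNNGAA and, in Hspa5, the ER stress element, CCAAT and CCACG with 9 bases between them, where N is any base.
Hspa1a, chr17:34972157-34972406, minus strand: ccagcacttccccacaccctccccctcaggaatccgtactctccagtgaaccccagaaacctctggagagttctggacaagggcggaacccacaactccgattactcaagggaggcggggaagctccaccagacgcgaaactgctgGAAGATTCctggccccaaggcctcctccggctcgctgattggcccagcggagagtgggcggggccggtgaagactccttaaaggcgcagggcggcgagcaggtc
Hspa1b, chr17:34959239-34959488, minus strand: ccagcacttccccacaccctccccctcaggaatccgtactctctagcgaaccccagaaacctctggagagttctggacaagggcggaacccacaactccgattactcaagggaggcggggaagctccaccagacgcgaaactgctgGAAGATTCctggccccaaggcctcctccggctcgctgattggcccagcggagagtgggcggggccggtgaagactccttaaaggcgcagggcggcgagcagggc
Hspe1, chr1:55087898-55088147, plus strand: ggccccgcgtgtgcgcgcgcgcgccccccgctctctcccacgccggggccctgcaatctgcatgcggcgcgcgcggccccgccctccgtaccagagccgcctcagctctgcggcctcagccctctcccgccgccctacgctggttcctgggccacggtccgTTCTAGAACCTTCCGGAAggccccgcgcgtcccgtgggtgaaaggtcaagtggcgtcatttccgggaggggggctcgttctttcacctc
Hspa5, chr2:34771840-34772089, plus strand: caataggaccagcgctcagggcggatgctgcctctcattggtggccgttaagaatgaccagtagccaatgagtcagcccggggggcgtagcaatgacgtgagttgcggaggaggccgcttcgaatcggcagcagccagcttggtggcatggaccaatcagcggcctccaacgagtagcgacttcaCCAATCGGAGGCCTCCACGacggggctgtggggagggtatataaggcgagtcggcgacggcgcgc

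The upstream sequences of Hspa1a and Hspa1b were identical at 247 of 250 bases. Both held 1 match of 8 bases, GAAGATTC, beginning 104 bases before the start, and a CCAAT box beginning 67 bases before it. In Hspe1, the units ran together into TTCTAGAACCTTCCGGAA, 18 bases at chr1:55088059-55088076 that begin 89 bases before the Hspe1 start. The same 18 bases, read on the other strand, begin 144 bases upstream of 1 of the 2 annotated Hspd1 starts, so the pair, transcribed away from each other, shares 1 element. Matches were sought on both strands in the 250 bases. The 3-unit element, GAA, TTC and GAA or TTC, GAA and TTC with NN after each of the first 2 units, was found in 0.466% of 32851 promoters, and among the 7 genes in Hspd1 and Hspe1. The 2-unit form, which the 3-unit form contains, was found in 12.8% of promoters and in 5 of the 7 genes, namely Hspa1a, Hspa1b, Hspb1, Hspd1 and Hspe1. The ER stress element, chosen after the sequences had been seen, was found in 0.113% of promoters and once in Hspa5, beginning 65 bases before the start. A CCAAT box (CCAAT or ATTGG) was found in 33.8% of promoters and in 4 of the 7 genes, CCACG or CGTGG in 28.3% and in 4 of the 7, and TATAAA or TTTATA in 12.4% and in 0 of the 7. These matches describe letters in a window and do not show binding.

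The constitutive chaperones were the most abundant members in both cell types, and the classical heat-inducible genes Hspa1a, Hspa1b and Hspb1 were listed at 3.75 FPKM at most. In NSCs the order by mean FPKM was Hsp90ab1, Hspa8, Hspe1, Hspa5, Hsp90aa1, Hspd1, Dnajb1, Hspa1b, Hspb1 and Hspa1a. The ranges of Hspe1, Hspa5, Hsp90aa1 and Hspd1 overlapped from each to the next, as did those of Hspa1b and Hspb1, so these neighbours could not be ordered beyond their spread. In STO cells the order was Hsp90ab1, Hspa8, Hsp90aa1, Hspa5, Hspd1, Hspe1, Dnajb1, Hspa1b, Hspa1a and Hspb1, and among neighbours only Hsp90aa1 and Hspa5 overlapped. Together the 10 genes amounted to 2530.5 and 2582 FPKM in NSCs and to 3061, 3278 and 3257 FPKM in STO cells, which was 0.571% and 0.578% of all FPKM in NSCs and 0.772%, 0.850% and 0.814% in STO cells. Hsp90ab1, Hspa8 and Hsp90aa1 supplied 70.4% to 74.0% of that sum in every sample.

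**Figure D1:**
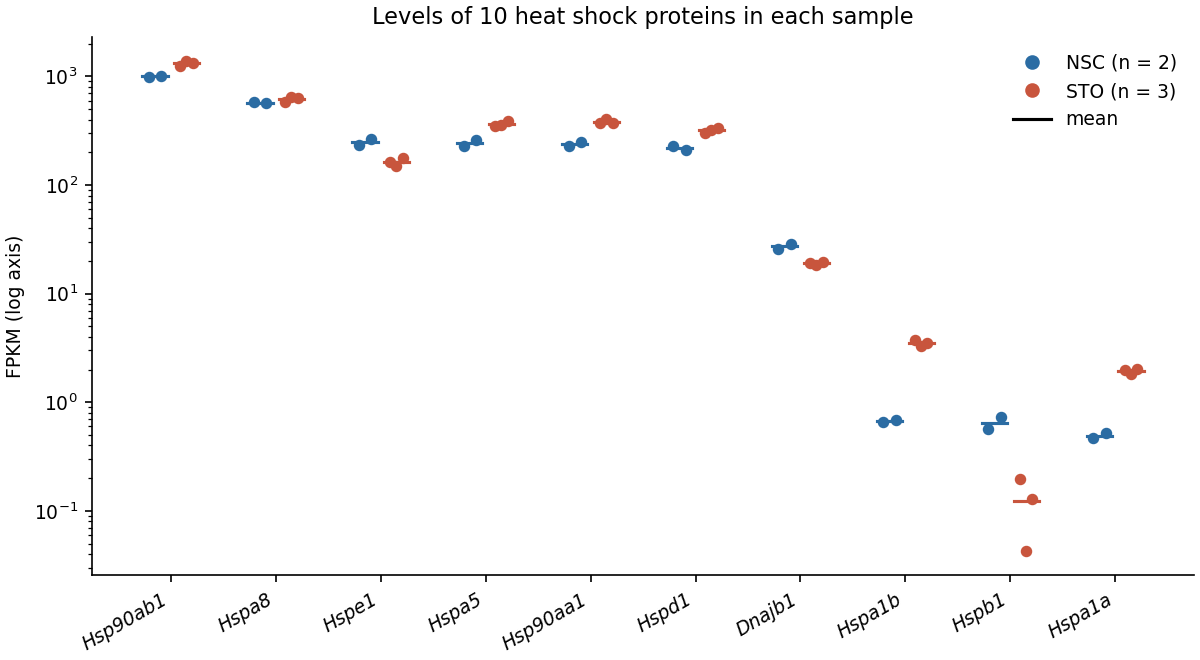
FPKM (log axis) of the 10 heat shock proteins in each of 2 NSC and 3 STO samples (points) with the mean of each cell type (lines), ordered by the NSC mean. Hsp90ab1 lay at 995 to 1382 FPKM, whereas Hspa1a, Hspa1b and Hspb1 lay at 0.0428 to 3.75 FPKM.

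STO cells and NSCs were compared with limma on log2(FPKM + 1) over the 12293 genes whose mean was at least 1 FPKM in either cell type. The cell types differed widely: 85.6% of these genes had an adjusted p under 0.05 (41.9% higher and 43.7% lower in STO cells), and in 89.9% the samples of the cell types did not overlap (43.9% higher and 46.0% lower in STO cells). Of the 10 heat shock proteins 9 were tested, since Hspb1 was under 1 FPKM in both cell types. Hspa1a and Hspa1b passed this filter only through STO cells, where they were higher, so their being called says little beyond the filter. Of the 9, 6 were higher and 2 lower in STO cells and Hspa8 was not called, with a median difference of 0.53 over the 9 that passed the filter, beside -0.023 over all tested genes. In all 10 genes the samples of the cell types did not overlap, a state shared by 78.4% of genes when the filter is not applied. A call is thus the usual state of a gene in this comparison, and the sizes of the differences carry more than their number. The absolute difference was exceeded by that of 53.0% to 70.4% of tested genes for the 6 called genes besides Hspa1a and Hspa1b. For Hspa8 it was exceeded by that of 91.8%, for Hspb1's place no rank was taken, and for Hspa1b and Hspa1a the shares were 25.3% and 39.5%. The filter that admitted Hspa1a and Hspa1b only through STO cells also favours a difference. Their ranks and their part in the counts and the median therefore say little beyond the filter.

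**Figure D2:**
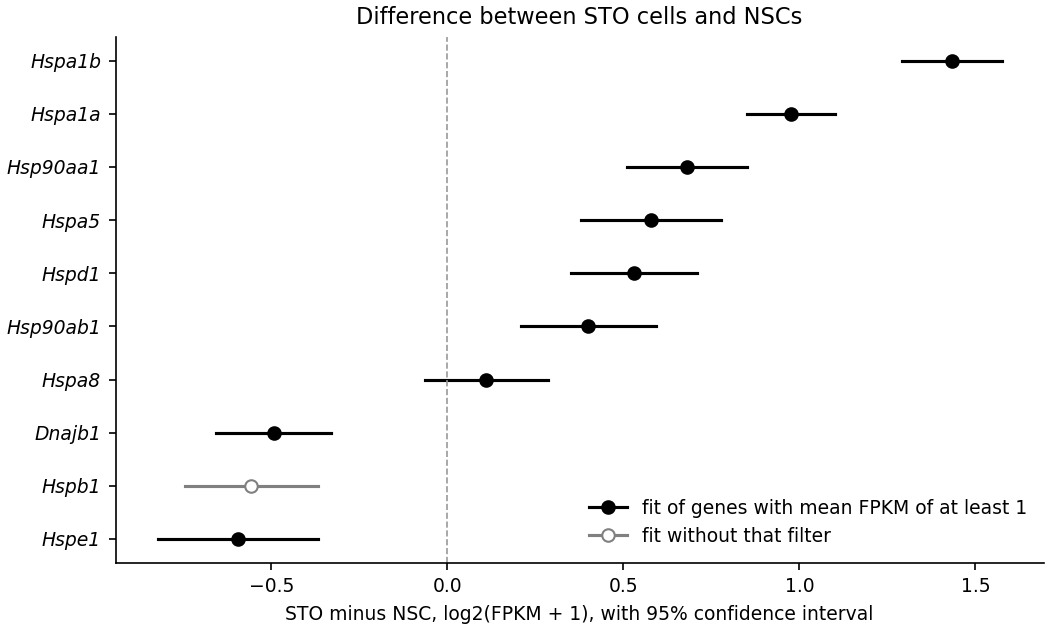
Difference between STO cells and NSCs in log2(FPKM + 1) with its 95% confidence interval for each gene, from limma over all tested genes (filled) or, for Hspb1, from the fit without the filter on low values (open). Hspa1b, at 1.43, and Hspa1a, at 0.98, were farthest above 0, the interval of Hspa8 included 0, and Dnajb1, Hspb1 and Hspe1 lay below it.

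Hspa1a and Hspa1b encode the stress-inducible cytosolic HSP70. Hspa1a (NM_010479, chr17:35106304-35109101 in mm9) was at 0.466 and 0.519 FPKM in NSCs and at 1.98, 1.83 and 2.01 FPKM in STO cells. Hspa1b (NM_010478, chr17:35093374-35096183) was at 0.656 and 0.692 FPKM in NSCs and at 3.75, 3.33 and 3.49 FPKM in STO cells. Every STO sample was well above both NSC samples for either gene, and the level stayed low in all 5 samples: Hspa1b ranked 11795 to 11851 in NSCs and 9179 to 9315 in STO cells among the 25415 genes. The ratio of mean FPKM in STO cells to that in NSCs was 3.94 for Hspa1a and 5.23 for Hspa1b. Adding 1 before taking logs shrinks differences between values this low, and the fitted log2(FPKM + 1) difference was 0.98 ± 0.051 (SE) for Hspa1a (limma, adjusted p = 4.51e-06) and 1.43 ± 0.058 (SE) for Hspa1b (limma, adjusted p = 1.29e-06). Both genes passed the filter only through STO cells, so these p-values say little beyond it.

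The coding sequences of the pair are identical at 99.5% of 1929 aligned positions, with a longest identical run of 638 bases, and the way fragments are divided between them is therefore uncertain. Of the longest annotated transcript, 74.0% of Hspa1a and 78.5% of Hspa1b had a copy elsewhere in mm9 at an identity of at least 98% over at least 100 bases, in 1 alignment each. Their summed level depends less on the division between them. How fragments that match both copies were counted is not given in the sources used here, and loss of such fragments would lower the sum. It was 1.12 and 1.21 FPKM in NSCs and 5.74, 5.16 and 5.50 FPKM in STO cells, 4.68 times higher in STO cells by the means. Fitted as 1 gene, the pair differed by 1.58 ± 0.060 (SE) on the log2(FPKM + 1) scale (limma, adjusted p = 9.92e-07). This fit was chosen after seeing the data. The ratio of Hspa1b to Hspa1a was 1.41 and 1.33 in NSCs and 1.90, 1.83 and 1.74 in STO cells, without overlap. Hspa1l, the neighbouring HSP70 gene 546 bases from Hspa1a in mm9, was at 1.26 and 0.853 FPKM in NSCs and at 2.53, 1.81 and 2.17 FPKM in STO cells.

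Hspb1 encodes HSP25, a small heat shock protein that holds unfolded proteins without ATP. Hspb1 (NM_013560, chr5:136363789-136365433) was at 0.563 and 0.739 FPKM in NSCs and at 0.196, 0.0428 and 0.129 FPKM in STO cells. These values rest on 16 and 22.8 effective fragments in NSCs and on 4.0, 1.0 and 4.0 in STO cells. An effective fragment count is the number whose Poisson error gives the deposited upper bound. The STO samples lay below the NSC samples, but their intervals, mirrored from the deposited upper bound and cut at 0, all reached 0. At these counts an order among the STO samples was not detectable. From the summed fragments, 39 against 9, the NSC rate was 5.47 times the STO rate, with an exact 95% interval of 2.61 to 12.8 that covers counting error only. Without the filter, the difference was -0.56 ± 0.074 (SE) on the log2(FPKM + 1) scale (limma, adjusted p = 0.00127), and -1.81 with a pseudocount of 0.1. Copies elsewhere in mm9 covered 86.0% of its transcript in 2 alignments. How fragments that match such copies were counted is not given in the sources used here. Their loss would lower these values, and this was not tested.

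**Figure D3:**
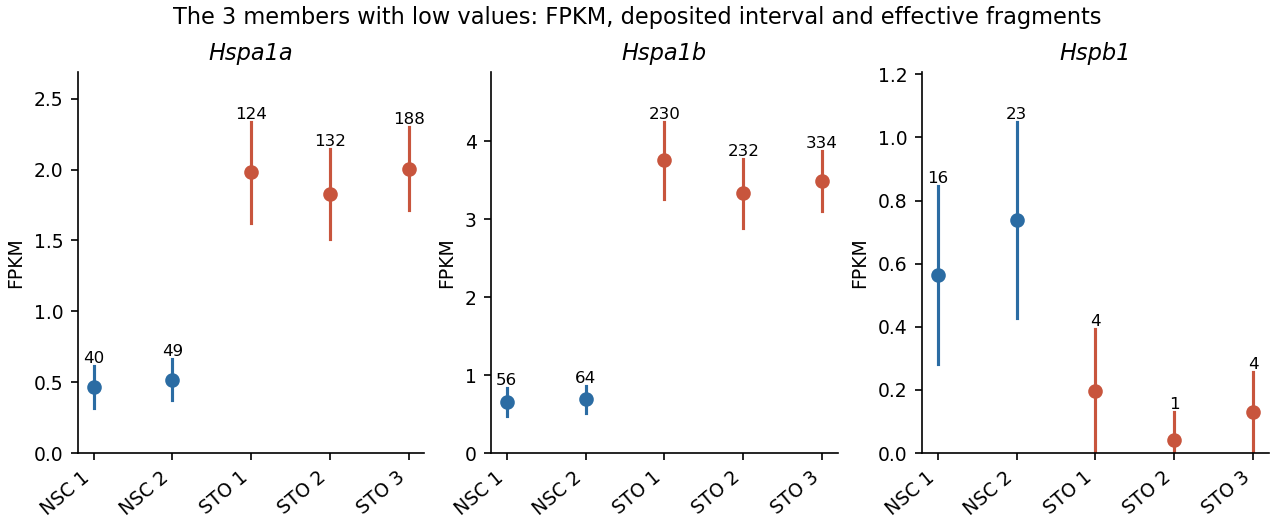
FPKM of Hspa1a, Hspa1b and Hspb1 in each sample with an interval mirrored from the deposited upper confidence bound (lines, cut at 0). The number above each line is the effective fragment count. Hspa1a and Hspa1b were above their NSC intervals in all 3 STO samples, and Hspb1 rested on 1.0 to 4.0 fragments in STO cells.

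Hspa8 encodes HSC70, the constitutive cytosolic HSP70 that also drives uncoating of clathrin vesicles. Hspa8 (NM_031165, chr9:40609356-40613282) was at 584 and 565 FPKM in NSCs and at 588, 641 and 633 FPKM in STO cells. The lowest STO sample lay just above the highest NSC sample, and the samples overlapped once scaled to the same median. The difference of 0.11 ± 0.071 (SE) on the log2(FPKM + 1) scale did not pass the test (limma, adjusted p = 0.192), and its 95% interval ran from -0.065 to 0.28. Quantile normalization gave 0.56 (limma, adjusted p = 0.00029), so the call of Hspa8 depends on the scaling, and the cause was not tested. Copies elsewhere in mm9 covered 87.9% of its transcript. Against Hspa8, the inducible pair Hspa1a and Hspa1b amounted to 0.192% and 0.214% in NSCs and to 0.975%, 0.804% and 0.868% in STO cells. By these values the inducible form stayed under 1% of the constitutive form in every sample, and the part of fragments shared with copies was not tested.

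Dnajb1 encodes HSP40, the J-domain protein that delivers clients to cytosolic HSP70, and it is itself induced by heat. Dnajb1 (NM_018808, chr8:86132074-86136552) was at 25.6 and 28.9 FPKM in NSCs and at 19.2, 18.4 and 19.5 FPKM in STO cells. Every STO sample was below both NSC samples, the opposite direction to Hspa1a and Hspa1b. The difference was -0.49 ± 0.067 (SE) on the log2(FPKM + 1) scale (limma, adjusted p = 0.000512). Relative to Hspa8, Dnajb1 was 4.39% and 5.11% in NSCs and 3.26%, 2.87% and 3.09% in STO cells. No copy of its transcript was found elsewhere in mm9, and its other listed transcript was at 0 in all 5 samples.

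Hspa5 encodes BiP, the HSP70 of the endoplasmic reticulum (ER). Hspa5 (chr2:34627610-34632049) was at 229 and 259 FPKM in NSCs and at 351, 356 and 385 FPKM in STO cells. All 3 STO samples were above both NSC samples. The difference was 0.58 ± 0.081 (SE) on the log2(FPKM + 1) scale (limma, adjusted p = 0.00062). Of its 2 listed transcripts, NM_001163434 supplied 89.5% and 89.8% of the level in NSCs and 85.4%, 88.7% and 86.9% in STO cells. No copy of the transcript was found elsewhere in mm9.

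Hsp90ab1 and Hsp90aa1 encode the constitutive and the more inducible form of cytosolic HSP90, which completes the folding of kinases and steroid receptors. Hsp90ab1 (NM_008302, chr17:45704727-45710210) was at 995 and 1005 FPKM in NSCs and at 1254, 1382 and 1329.6 FPKM in STO cells. It ranked 54 and 50 among all genes in NSCs and 13, 10 and 11 in STO cells. All 3 STO samples were above both NSC samples. Hsp90aa1 (NM_010480, chr12:111929246-111934605) was at 231 and 247 FPKM in NSCs and at 373, 404 and 374 FPKM in STO cells. The difference was 0.40 ± 0.079 (SE) for Hsp90ab1 (limma, adjusted p = 0.0031) and 0.68 ± 0.070 (SE) for Hsp90aa1 (limma, adjusted p = 0.000128), on the log2(FPKM + 1) scale. With quantile normalization the Hsp90ab1 difference was 0.85. The ratio of Hsp90aa1 to Hsp90ab1 was 0.232 and 0.246 in NSCs and 0.298, 0.292 and 0.281 in STO cells, so the more inducible form was higher relative to the constitutive one in every STO sample. Copies elsewhere in mm9 covered 84.5% of the Hsp90aa1 transcript and 6.83% of that of Hsp90ab1. Their coding sequences are identical at 75.9% of aligned positions, with no identical run longer than 33 bases.

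Hspd1 and Hspe1 encode HSP60 and HSP10, the barrel and the lid of the mitochondrial folding chamber, and lie head to head. Hspd1 (NM_010477) was listed at chr1:55134677-55145087, counting both of its transcripts, and Hspe1 (NM_008303) at chr1:55144992-55148161. The listed loci overlap at their starts, the library kit kept strand, and whether strand was used in quantifying is not given in the sources used here. Hspd1 was at 231 and 210.0 FPKM in NSCs and at 305, 320.1 and 332 FPKM in STO cells. Hspe1 was at 233 and 264 FPKM in NSCs and at 164, 151 and 178 FPKM in STO cells. The 2 genes differed in opposite directions, and in neither did the cell types overlap. The upstream element shown above precedes only 1 of the 2 annotated Hspd1 starts, and no heat shock match was found before the other. Which of the 2 starts NM_010477 uses was not examined here. The difference was 0.53 ± 0.073 (SE) for Hspd1 (limma, adjusted p = 0.000551) and -0.59 ± 0.093 (SE) for Hspe1 (limma, adjusted p = 0.00107), on the log2(FPKM + 1) scale.

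The ratio of Hspe1 to Hspd1 was 1.01 and 1.26 in NSCs and 0.540, 0.471 and 0.535 in STO cells. Transcripts of the lid were thus level with or above those of the barrel in NSCs and below them in every STO sample. Copies elsewhere in mm9 covered 92.2% of the Hspd1 transcript and 69.3% of that of Hspe1, and the part of shared fragments in the ratio was not tested. With 2 against 3 samples an exact permutation test could not reach 0.05, so this ratio and the others are given as values.

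**Figure D4:**
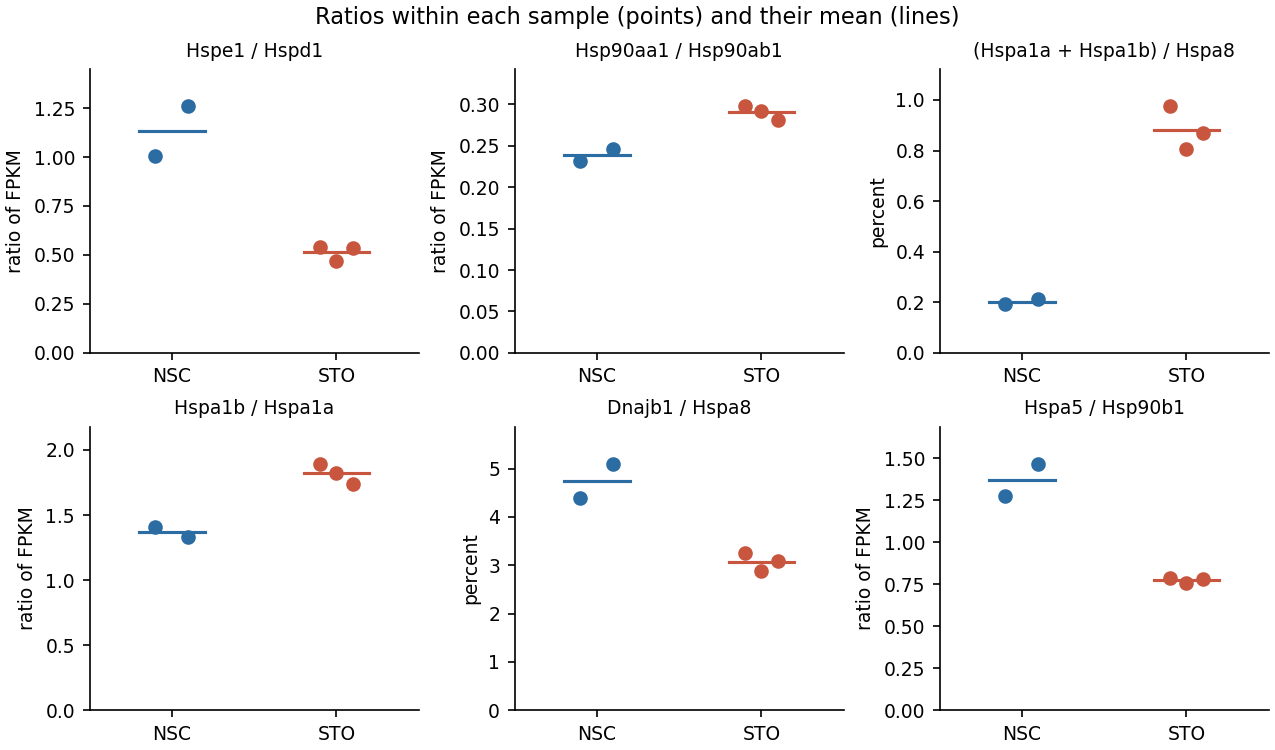
Ratios of FPKM within each sample (points) with the mean of each cell type (lines), NSC on the left and STO on the right of each panel, all axes from 0. Hspe1 over Hspd1 was 1.01 and 1.26 in NSCs and 0.471 to 0.540 in STO cells, and no ratio overlapped between the cell types.

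By the distance between their values over the 5 samples in log2(FPKM + 1), the genes nearest to Hspa1b were Garnl3 (0.241), Bmf (0.241) and Zfp820 (0.245), and those nearest to Hspe1 were Snrpd2 (0.172), Selenof (0.203) and Psap (0.254). Hspa1b and Hspe1 had the largest differences upward and downward among the 9 members that passed the filter, on the log2(FPKM + 1) scale. Hspb1, which did not pass, was 5.31 times lower in STO cells by the means, against 1.51 times for Hspe1.

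Other chaperones and their partners were read from lists by role, 133 further genes in all. Of these, 118 were tested, 55 were higher and 36 lower in STO cells and 27 were not called, with a median difference of 0.15, beside calls in 41.9% and 43.7% of all tested genes. Among the 118, 5 passed the filter through only 1 cell type, and their calls say little beyond it. The 133 genes are described list by list, with those of the largest differences, and all differences are on the log2(FPKM + 1) scale from the same limma fit. The same shares of all tested genes are the background for the counts of every list. Hsp90b1, Hyou1, Dnajb9, Dnajb11, Dnajc3, Dnajc10, Hspa9, Trap1, Dnaja3 and Dnajc19 belong to several lists and are counted in each.

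Heat shock factor 1, the regulator of the heat shock genes, differed little between the cell types. Hsf1 was at 20.0 and 21.7 FPKM in NSCs and at 23.2, 23.1 and 23.1 FPKM in STO cells, a difference of 0.14 ± 0.055 (SE) with a limma adjusted p = 0.0474. With any 1 STO sample left out, the adjusted p of Hsf1 was between 0.0955 and 0.113, and with quantile normalization it was 0.098. Hsf2, a second factor that also acts in development, was lower in STO cells, at 15.3 and 17.6 FPKM in NSCs and 10.7, 10.6 and 11.4 FPKM in STO cells (-0.55, limma adjusted p = 0.000524). Hsbp1, which encodes a small protein that binds HSF1, was at 91.6 and 100.4 FPKM in NSCs and at 60.5, 53.7 and 62.5 FPKM in STO cells (-0.70, limma adjusted p = 0.000281). The other 4 listed genes were under 1 FPKM in both cell types, and Hsf3 was at 0 in all 5 samples.

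Among the other HSP70 and HSP110 genes, 11 of 11 were tested, 7 were higher, 1 lower and 3 not called. Hsph1, the HSP110 partner of HSP70, was at 34.0 and 34.7 FPKM in NSCs and at 62.7, 64.6 and 70.0 FPKM in STO cells (0.92, limma adjusted p = 1.72e-05). Hspa12b, a distant HSP70 relative known from endothelium, was at 0.486 and 0.434 FPKM in NSCs and at 7.43, 7.05 and 7.16 FPKM in STO cells. It passed the filter only through STO cells. Hspa12a differed by 1.47, and Hspa2, the testis-enriched HSP70, by -0.36. The 2 other HSP90 genes differed in opposite directions. Hsp90b1, the HSP90 of the ER, was at 179 and 176 FPKM in NSCs and at 446, 470 and 494 FPKM in STO cells (1.40, limma adjusted p = 3.11e-06). Trap1, that of mitochondria, was at 48.5 and 50.6 FPKM in NSCs and at 32.8, 31.4 and 33.9 FPKM in STO cells (-0.58, limma adjusted p = 9.34e-05).

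Of 8 other small heat shock proteins, 3 were tested, 2 were higher and 1 lower in STO cells, and Hspb2 and Cryaa were at 0 in all samples. Hspb8, which works with BAG3 in the selective clearance of damaged proteins, was at 3.01 and 2.75 FPKM in NSCs and at 40.2, 37.2 and 42.4 FPKM in STO cells (3.40, limma adjusted p = 6.75e-08). Cryab, alphaB-crystallin, was at 30.5 and 40.4 FPKM in NSCs and at 18.4, 16.0 and 18.8 FPKM in STO cells (-0.95, limma adjusted p = 0.000544). By listed values the small heat shock proteins of highest level were thus Cryab in NSCs and Hspb8 in STO cells, with Hspb1 near 0 in both. The part of its copies elsewhere in mm9 in the low values of Hspb1 was not tested. Hspb6 was at 7.54 and 10.4 FPKM in NSCs and at 11.4, 10.9 and 11.9 FPKM in STO cells (0.33, limma adjusted p = 0.0451), and was not called without NSC replicate 1 (0.12, limma adjusted p = 0.189).

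J-domain proteins were evenly split, with 15 of 37 tested genes higher, 15 lower and 7 not called. Among called genes, the largest differences upward in STO cells were those of Dnajc25 (2.04), Dnajc22 (1.48) and Dnajc3 (1.45), and downward those of Dnajb5 (-1.73), Dnajb3 (-1.52) and Dnajc18 (-1.43). Dnajc22 passed the filter only through STO cells, and Dnajb3 and Dnajc28 (named after its values were seen) only through NSCs. These 3 calls say little beyond the filter. Dnajc3 encodes P58IPK, a partner of BiP in the ER.

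Among exchange factors and adaptors of HSP70, 4 of 11 were higher, 2 lower and 5 not called. Bag3, an exchange factor that links HSP70 to small heat shock proteins, was at 13.3 and 13.6 FPKM in NSCs and at 28.4, 31.1 and 30.2 FPKM in STO cells (1.10, limma adjusted p = 4.66e-06). Bag1 differed by 0.70 and Stub1, which encodes the ubiquitin ligase CHIP, by 0.45. Sil1, the exchange factor of BiP, was at 21.0 and 22.3 FPKM in NSCs and at 7.18, 6.28 and 6.51 FPKM in STO cells (-1.57, limma adjusted p = 2.08e-06), the opposite direction to Hspa5. Hspbp1, another exchange factor, differed by -0.72.

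Of 15 tested HSP90 cochaperones, 8 were higher, 3 lower and 4 not called. Chordc1 was at 14.8 and 16.3 FPKM in NSCs and at 36.1, 37.7 and 39.9 FPKM in STO cells (1.23, limma adjusted p = 6.35e-06). Unc45a, which folds myosin, differed by 1.29 and Ppid, a cyclophilin, by 0.86. Lower in STO cells were Fkbp5, the glucocorticoid-responsive immunophilin (-0.79), Tomm34 (-0.46) and the phosphatase Ppp5c (-0.35).

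The cytosolic chaperonin TRiC and its helper prefoldin were read as 1 list. Of 14 tested genes 2 were higher, 5 lower and 7 not called. The 2 that were higher were TRiC subunits, with Tcp1 at 165 and 169.8 FPKM in NSCs and at 234, 239.8 and 254 FPKM in STO cells, and Cct6a differing by 0.47. The 5 that were lower were all prefoldin subunits, which hand nascent actin and tubulin to TRiC. Pfdn1 was at 91.4 and 81.9 FPKM in NSCs and at 28.4, 26.4 and 32.6 FPKM in STO cells (-1.54, limma adjusted p = 1.31e-05), Pfdn2 differed by -1.34 and Pfdn4 by -1.12. The remaining pair, named after their values were seen, were Pfdn5 (-1.02) and Vbp1 (-0.22). The prefoldin subunit Pfdn6 (0.096, limma adjusted p = 0.299) and the TRiC subunits Cct2 (0.16), Cct3 (-0.056), Cct4 (0.21), Cct5 (-0.058), Cct7 (-0.12) and Cct8 (0.094) were not called, and a difference between TRiC and prefoldin was not tested.

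ER folding and the unfolded protein response formed the list with the highest median difference, 0.72. Of its 23 genes 17 were higher, 5 lower and 1 not called, beside 41.9% higher and 43.7% lower among all tested genes. Among those higher, Ddit3 passed the filter only through STO cells. Serpinh1, which encodes the collagen chaperone HSP47, was at 35.9 and 30.1 FPKM in NSCs and at 344, 327 and 349 FPKM in STO cells (3.33, limma adjusted p = 1.55e-07). Collagen genes moved with it, as the fibroblast markers above show, and the part of cell type in this list was not tested. Ddit3, the stress-induced transcription factor CHOP, was listed at 0 in both NSC samples and at 30.5, 28.0 and 30.7 FPKM in STO cells, so no fold is given. Its values of 0 carried the status OK, as did the values of 0 of Dnajc19 and Ahsa2 described at the end. Whether the Ddit3 transcript was absent from NSCs was not tested. Lower in STO cells were Eif2ak3, the stress-sensing kinase PERK (-0.88), Sdf2l1 (-0.83) and Dnajb11, a J-domain partner of BiP (-0.26). The ratio of Hspa5 to Hsp90b1, the main ER chaperones, was 1.28 and 1.47 in NSCs and 0.787, 0.759 and 0.780 in STO cells, since Hsp90b1 differed more than Hspa5.

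Mitochondrial folding factors and proteases were split, with 4 of 9 higher, 4 lower and 1 not called. Yme1l1 (0.65), Htra2 (0.46) and Clpx (0.41) were higher in STO cells, and Dnaja3 (-0.63), Trap1 and Clpp (-0.51) were lower. The remaining called genes, named after their values were seen, were Hspa9, which was higher (0.16), and the protease Lonp1, which was lower (-0.17). Clpx and Clpp, the 2 parts of 1 protease, thus differed in opposite directions, beside 41.9% higher and 43.7% lower among all tested genes. Hspa9, the mitochondrial HSP70, was at 146 and 142 FPKM in NSCs and at 155, 160.0 and 169.9 FPKM in STO cells.

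**Figure D5:**
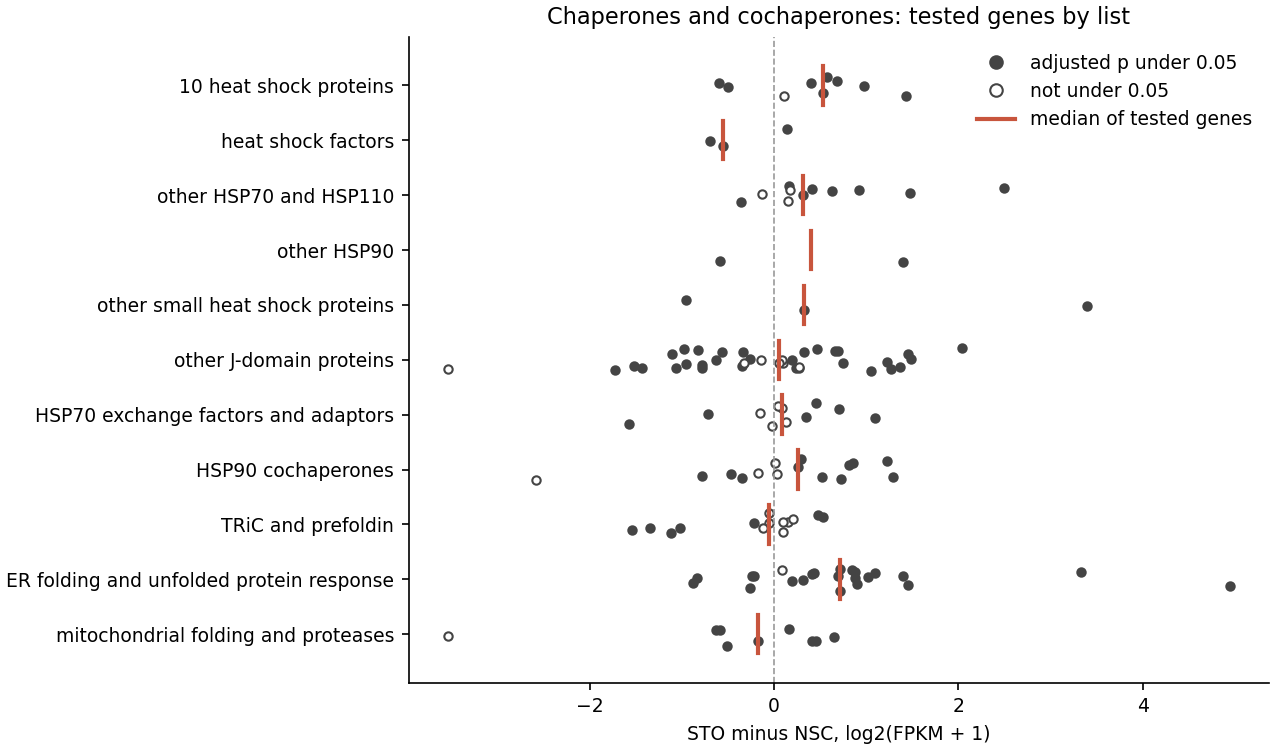
Difference between STO cells and NSCs in log2(FPKM + 1) for each tested gene (points) of the 10 heat shock proteins and of each list of other chaperones, with the median of each list (lines). Medians ran from -0.55 for the heat shock factors to 0.72 for ER folding and the unfolded protein response, and every list with more than 3 genes held genes on both sides of 0.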

How the data were processed

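Expression was analysed from 1 table of transcripts per sample, with 40201 RefSeq transcripts each. The authors deposited FPKM values with confidence bounds. Their processing notes list trimming, HISAT2 (given as version 4.8.2), Cufflinks 2.2.1 and the mm9 genome. Of the transcripts, 39946 matched a symbol, and FPKM were summed to 25415 genes. The 10 genes and all lists were chosen with earlier results of these data known.

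Differences were fitted with limma 3.58.1 (R 4.3.3) on log2(FPKM + 1) over genes with a mean of at least 1 FPKM in either cell type, with a variance trend and Benjamini-Hochberg adjustment over all 12293 genes, two-sided, at 0.05. The script was tested on simulated data. All 10 heat shock proteins were named and, from each list, up to 3 called genes with the largest differences in each direction, genes at 0, and the 3 genes nearest to the extreme members. Library depth is not in the tables, so fragments were inferred from the upper confidence bounds, and intervals on them cover counting error only. Copies were sought with BLAST 2.17.0 in mm9. Upstream sequences came from RefSeq. Protein identity was not computed, since no protein sequences were used here.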

Additional observations from a re-analysis of the deposited data

How the results depend on the processing

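Of the heat shock proteins, 6 were higher and 2 lower with the other pseudocount, median scaling, no variance trend, 1 transcript per symbol, no failed estimates, the replicate block, and without each sample in turn (6 to 6 and 2 to 2). With no filter 6 were higher and 3 lower, as Hspb1 was then tested. With a mean of at least 5 FPKM 4 were higher, since Hspa1a and Hspa1b were removed. With quantile normalization 7 were higher, Hspa8 included, and with the pair Hspa1a and Hspa1b summed 5 were. With a minimum absolute difference of 1 on the log2 scale, 1 was higher and 0 lower, as were 2103 and 2617 of all genes and 18 and 10 of the other chaperones, since the minimum removes small differences. Over the samples left out, 4704 to 5065 of all genes were higher and 4900 to 5252 lower, and 49 to 52 and 32 to 36 of the other chaperones. Without an NSC sample, the lone NSC sample was assumed to vary like the STO samples. Samples with the same number did not deviate together (correlations of 0.011 and 0.060), so the numbers were not taken as pairs; with the replicate block 4994 genes were higher and 5250 lower, 52 and 37 of the other chaperones, and Hsf1 and Hspb6 were not called. With 1 transcript per symbol, Hspa5 over Hsp90b1 was 1.23 in NSCs and 0.674 in STO cells, and the 10 genes held 0.605% and 0.857% of all FPKM. Scaled to the same median, their NSC sum was 2612 FPKM. Of 54 named genes, 0 changed direction. Values of 4 genes (Hsf1, Hspb6, Dnajb11 and Htra2) lost their call in 22 fits, and Hspa8 gained one with quantile normalization; the cause was not tested. Scalings moved the median of all genes by at most 0.060. The summed pair Hspa1a and Hspa1b, the fit without filter at a pseudocount of 0.1 and the median-scaled pair were chosen after seeing the data. Low levels limit Hspb1 most, and 2 NSC samples limit every comparison.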

Other observations

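Dnajc19, a J-domain gene of the mitochondrial import motor, was at 32.1 and 35.2 FPKM in NSCs and 25.6 FPKM in STO replicate 1, and was listed at 0 in STO replicates 2 and 3. Ahsa2, an HSP90 cochaperone, was at 12.8 and 12.7 FPKM in NSCs and 11.3 FPKM in STO replicate 1, and was also listed at 0 in STO replicates 2 and 3. Both carried the status OK in those samples, and neither was called.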
